A study of Homo sapiens with 3 samples.

Results

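Cells take up amino acids through transporters of the solute carrier (SLC) families, and 10 of these genes were examined in A549 cells with and without knockdown of the RNA helicase DDX24. The members were chosen by gene name (SLC7A5, SLC3A2, SLC7A11, SLC7A1, SLC1A4, SLC1A5, SLC38A1, SLC38A2, SLC6A9 and SLC43A1), and all 10 were found once each among the 58735 genes of the deposited tables. A549 is an established human lung adenocarcinoma line. RNA was sequenced from 3 libraries, 1 per condition, namely a control (Control-sh) and cells with either of 2 hairpin RNAs that target DDX24 (DDX24-sh1, DDX24-sh2), each made from 4 μg of total RNA. The methods of the study describe stable lines infected with lentiviral pLKO.1 vectors, held under puromycin in F12K medium with serum. Their control is the empty vector, whereas a figure legend of the study names a control shRNA for A549 cells. The label of the control library does not name its vector. Values below are given in the order Control-sh, DDX24-sh1, DDX24-sh2, or DDX24-sh1 before DDX24-sh2 for ratios to the control. Total counts were 17218884, 18337471 and 17847190. With 1 library per condition no test between conditions was possible, so each interval given for a ratio is, unless named otherwise, an exact 95% interval from the counts of 2 libraries, which stands in brackets after the ratio and covers counting error and not the variation between cultures.

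Essential amino acids cannot be made by human cells and enter through exchangers and cotransporters in the plasma membrane, several of which are raised in tumours. SLC7A5 (LAT1) and SLC7A11 (xCT) are light chains that reach the membrane bound to the heavy chain SLC3A2 (CD98hc). Many of these genes are known targets of ATF4, the transcription factor that is translated more when EIF2 is phosphorylated under amino acid shortage or endoplasmic reticulum stress, and MYC and NRF2 (NFE2L2) are known to act on some of them as well.

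The labels were checked first. DDX24 (ENSG00000089737, chromosome 14) had 2010, 637 and 765 counts. After scaling by TMM (a factor per library that sets most genes equal), 29.6% and 36.0% of the control level was left, or -1.75 (-1.89 to -1.63) and -1.47 (-1.60 to -1.35) on the log2 scale. The deposited FPKM values carry the names of the 2 shRNA libraries the other way round from the counts, so DDX24-sh1 and DDX24-sh2 denote here the libraries whose counts bear those names, and which naming is right is not known. Epithelial and A549 markers were detected in each library. KRT8 had 64704, 69499 and 63926 counts and ALDH1A1 had 96250, 101755 and 106051. All 15 markers of that list had a mean of 1 CPM (counts per 1000000 counts of the library) or more, and their summed level was 26060, 26020 and 26473 CPM, most of it from a few abundant genes. Some markers of the list differed between the libraries: the keratin KRT19 had 1001, 2251 and 2728 counts, the adhesion gene CDH1 had 538, 358 and 261, and the fibrinogen gene FGB had 54, 4 and 5. CDKN2A and CDKN2B, which are deleted in A549, had 0 counts in all libraries, and 3 counts would be 0.176 CPM in Control-sh. The leukocyte gene PTPRC and the alveolar type 2 genes SFTPA1 and NKX2-1 were also at 0, while ABCA3 of the alveolar list had 1421, 1512 and 1137 counts. The 4 endothelial markers summed to 1.05, 0.765 and 0.609 CPM. The 8 fibroblast markers summed to 326, 343 and 470 CPM, nearly all from VIM, which A549 cells express. Of the others, LUM had 27, 80 and 68 counts, PDGFRA 10, 25 and 22, and COL3A1 2, 27 and 8, while COL1A1 had 139, 174 and 143, PDGFRB 21, 15 and 9, DCN 1, 1 and 0 and COL1A2 0, 0 and 3. The part of these genes in the results was not tested. Mitochondrial genes took 4.36%, 5.13% and 7.04% of the counts, and their part in the results below was not tested.

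All 10 transporters had less mRNA with either shRNA than in the control, by 1.21-fold to 4.06-fold in DDX24-sh1 and by 1.39-fold to 4.14-fold in DDX24-sh2. SLC1A4, SLC7A1, SLC1A5 and SLC7A5 were at least 2-fold lower in both libraries, which made 4 of 10 members, compared with 1.38% of the 13984 genes tested, those averaging 1 CPM or more. SLC3A2 joined them in DDX24-sh1 and SLC43A1 in DDX24-sh2, giving 5 members in each, where 2.27% and 3.07% of genes were that low. At the other end, 0 members were 2-fold higher in both libraries, against 1.19% of genes. Any lower value in both libraries, the weaker criterion that all 10 members met, was met by 40.2% of genes, and a counting interval wholly below 0 in both, also met by all 10, by 20.6%. Well-counted genes have narrow intervals, so the last share depends on abundance, which was not matched here. The members had median log2 ratios of -0.98 and -0.99, compared with -0.02 and -0.03 over all genes tested. The members were chosen with earlier results of these data known, so these shares and medians describe them and are not a test. Both ratios use the same control library, and whatever is peculiar to that 1 culture cannot be told apart from the knockdown. Levels are relative to the other RNA in a library, so less transporter mRNA per cell cannot be told apart from more of the rest.

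**Figure D1:**
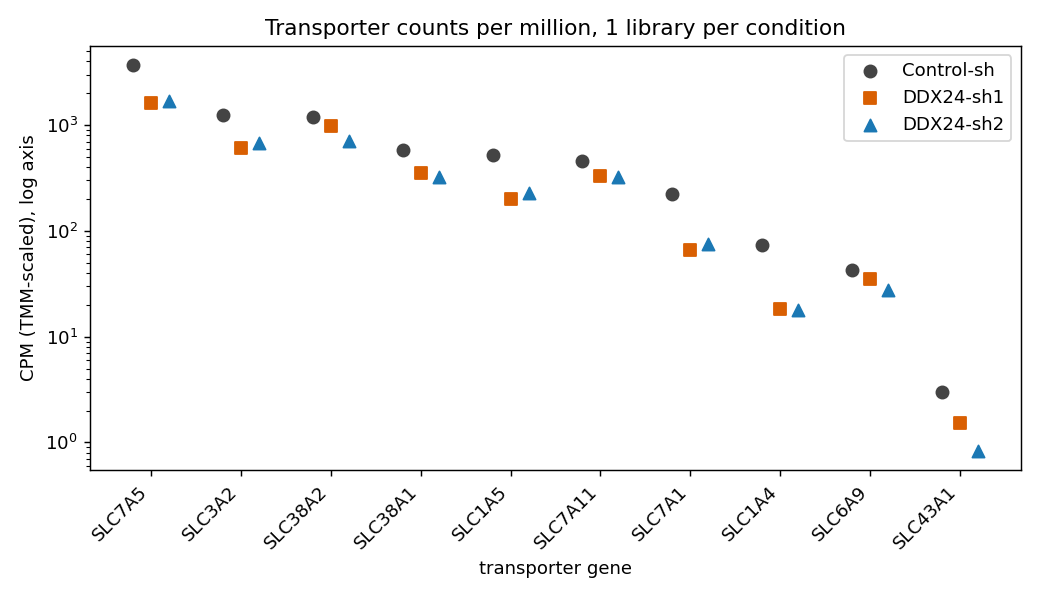
CPM (scaled by TMM, logarithmic axis) of the 10 transporters in each library, 1 point per library and no error bars because each condition has 1 library. The control point is the highest of the 3 for each gene, from 3686 CPM for SLC7A5 down to 2.99 CPM for SLC43A1.

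**Figure D2:**
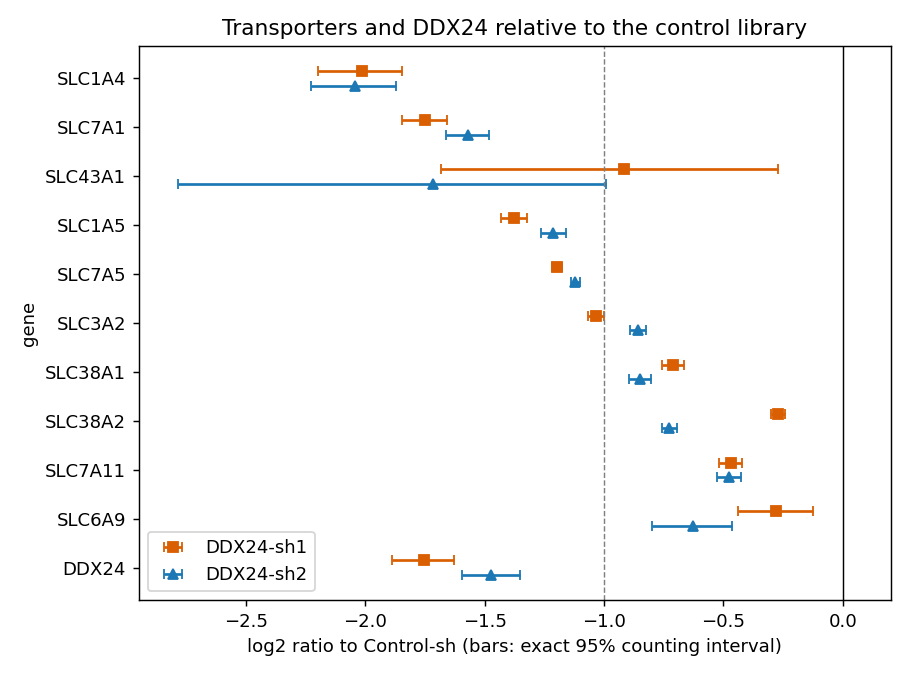
Log2 ratio to Control-sh of DDX24 and the 10 transporters in each shRNA library, with exact 95% intervals that cover counting error only and a dashed line at a 2-fold lower level. All points lie left of 0, SLC1A4 is lowest in both libraries (-2.01 and -2.04), and SLC43A1 has the widest bars.

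Promoters of the members were read from RefSeq for GRCh38.p14 (250 bases before to 50 after a start site), which held 16 promoters of 9 members. SLC7A11 was not in the table. The letters TGATGNAA were searched on both strands, as the core of the C/EBP-ATF response element (CARE) that ATF4 binds in amino acid response genes. They were found in 5 of the 16 promoters, 1 each of 5 members, compared with 3.62% of all 35116 promoters in the table. To show where the letters lie, the 30 bases around each match follow, 5′ to 3′ on the strand of the gene, with the match in capitals.
SLC1A4: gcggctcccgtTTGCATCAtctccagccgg
SLC3A2: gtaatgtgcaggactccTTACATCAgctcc
SLC38A1: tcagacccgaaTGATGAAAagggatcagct
SLC7A1: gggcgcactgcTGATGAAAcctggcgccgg
SLC1A5: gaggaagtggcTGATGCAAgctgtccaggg
The SLC1A4 window is chr2:64989381-64989410 on the plus strand, its match begins 7 bases before an alternative start site at 64989399, and the match is intronic in the 3 GENCODE 29 transcripts that span it. The SLC3A2 window is chr11:62881719-62881748 on the plus strand, with the match beginning at base 38 of a transcript that starts at 62881699, exonic in 5 and intronic in 9 of the spanning transcripts. The SLC38A1 window is chr12:46266502-46266531 on the minus strand and its match, which begins 4 bases before the start site at 46266516, is intronic in all 8 spanning transcripts. The SLC7A1 window is chr13:29595663-29595692 on the minus strand, and the match begins at base 8 of the first exon, in the untranslated part. The SLC1A5 window is chr19:46784893-46784922 on the minus strand, with the match beginning 97 bases before a downstream start site at 46784814, exonic in 1 and intronic in 2 spanning transcripts. Apart from that of SLC7A1, the matches thus lie at start sites inside the annotated gene. SLC1A4, SLC7A1 and SLC1A5 are among the 4 members at least 2-fold lower in both libraries, whereas SLC7A5, the other one, had no match in its promoter, and the match in SLC38A1 belongs to a gene with log2 ratios of -0.71 and -0.85. A pattern of the antioxidant response element, TGACNNNGC, was in 4 of the 16 promoters (of SLC3A2, SLC7A1, SLC7A5 and SLC1A5) and 13.3% of all promoters, and the E-box CACGTG was in 3 of the 16 (of SLC43A1, SLC7A5 and SLC1A5) and 7.26% of all. A match of letters is a description and not a binding site.

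SLC7A5 (ENSG00000103257, minus strand of chromosome 16, 87830023 to 87869488 of GRCh38), which exchanges glutamine for leucine and other large neutral amino acids, was the most abundant member. It had 62921, 29399 and 30614 counts. The control library thus held more than either shRNA library, whose levels of 43.6% and 46.0% of control corresponded to log2 ratios of -1.20 (-1.22 to -1.18) and -1.12 (-1.14 to -1.10). Per gene length, SLC7A5 stood at 2765 TPM (counts per length, scaled to 1000000 per library) in Control-sh, rank 28 of all genes, and at 1162 and 1181 TPM in the shRNA libraries, ranks 81 and 77. In DDX24-sh1, 1.32% of genes tested had a lower ratio, and in DDX24-sh2 2.26% had. Stretches of 536 to 604 nt are at least 95% identical to SLC7A5P1, SLC7A5P2 and SMG1P3, which had 18, 21 and 9 counts, no counts, and 59, 36 and 36 counts. How reads that fit several copies were counted is not given in the sources used here.

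SLC3A2 (ENSG00000168003, plus strand of chromosome 11, 62856102 to 62888875) encodes the heavy chain shared by SLC7A5 and SLC7A11. Its counts were 21199, 11088 and 12366. Its level was 48.8% of the control in DDX24-sh1, a log2 ratio of -1.03 (-1.07 to -1.002), and 55.2% in DDX24-sh2, a ratio of -0.86 (-0.89 to -0.83). The heavy chain was thus past the 2-fold limit in 1 shRNA library and short of it in the other. SLC7A5 differed from SLC3A2 by -0.16 log2 units in DDX24-sh1 (95% Wald interval of the 4 counts -0.20 to -0.12) and by -0.26 in the other library (Wald interval -0.30 to -0.22). Such differences were computed for 6 pairs of transporters in both libraries, and each of the 12 intervals excluded 0. No share over other gene pairs was computed, and well-counted genes have narrow intervals, so the 12 describe these pairs only.

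SLC7A11 (ENSG00000151012, minus strand of chromosome 4, 138164097 to 138242349) imports cystine in exchange for glutamate and so feeds glutathione synthesis. With TMM scaling it differed least between the shRNAs, by -0.00754 log2 units. With total counts SLC1A4 differed less, by -0.00901 against 0.0124 for SLC7A11. SLC7A11 had 7763, 6007 and 5897 counts. The shRNA libraries held 72.2% and 71.8% of the control level, log2 ratios of -0.47 (-0.52 to -0.42) and -0.48 (-0.53 to -0.43). SLC7A11 was therefore lower in both libraries but well short of 2-fold. SLC7A5 lay below it by -0.73 and -0.64 log2 units and SLC3A2 by -0.57 and -0.38. The antisense gene SLC7A11-AS1, which overlaps its end, had only 22, 13 and 25 counts.

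The light chains that pair with SLC3A2 are SLC7A5, SLC7A6, SLC7A7, SLC7A8, SLC7A10 and SLC7A11. Of their summed TPM, SLC7A5 made up 93.1%, 89.1% and 89.9%, and SLC7A11 made up 5.65%, 8.95% and 8.52%. The ratio of SLC3A2 to the summed light chains, in TPM, was 0.287, 0.308 and 0.333, and its size depends on the gene lengths used. SLC7A11, the cystine carrier, thus held a larger share of the light chains in both shRNA libraries than in the control.

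SLC43A1 (ENSG00000149150, minus strand of chromosome 11, 57484534 to 57515786), or LAT3, carries branched-chain amino acids and phenylalanine without a heavy chain. It was the rarest member, with 51, 28 and 15 counts. The ratios on the log2 scale, -0.92 (-1.68 to -0.27) and -1.72 (-2.78 to -0.99), were below 0, but the difference between the shRNA libraries was not detectable at this depth, with an interval of -1.89 to 0.07 for DDX24-sh2 over DDX24-sh1.

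SLC1A4 (ASCT1; ENSG00000115902, plus strand of chromosome 2, 64988477 to 65023865), an exchanger of serine, alanine and other small neutral amino acids, had the lowest ratios of all members. It had 1268, 335 and 324 counts, which left 24.7% and 24.2% of the control level. The log2 ratios were -2.01 (-2.20 to -1.85) and -2.04 (-2.23 to -1.87), and 0.257% and 0.358% of the genes tested had lower ones. Its relative SLC1A5 (ASCT2; ENSG00000105281, minus strand of chromosome 19, 46774883 to 46788594), a main carrier of glutamine in cancer cells, had 8931, 3685 and 4076 counts. SLC1A5 held 38.5% and 43.2% of the control level, log2 ratios of -1.38 (-1.43 to -1.32) and -1.21 (-1.27 to -1.16). Both ASCT genes were thus more than 2-fold lower in each library, and SLC1A4 differed from SLC1A5 by -0.64 (Wald interval -0.83 to -0.46) and -0.84 log2 units (Wald interval -1.02 to -0.65).

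SLC7A1 (CAT1; ENSG00000139514, minus strand of chromosome 13, 29509410 to 29595688), the main carrier of arginine, lysine and ornithine in most cells, was the second lowest in DDX24-sh1. It had 3816, 1213 and 1359 counts. The levels were 29.7% and 33.7% of the control, with log2 ratios of -1.75 (-1.85 to -1.66) and -1.57 (-1.66 to -1.48). SLC7A1 differed from SLC7A5 by -0.56 and -0.45 log2 units, and so was the more strongly reduced of the pair.

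SLC38A2 and SLC38A1 are sodium-coupled carriers of glutamine, alanine and other small neutral amino acids (SNAT2 and SNAT1) and lie near each other on the minus strand of chromosome 12. SLC38A2 (ENSG00000134294, 46358189 to 46372867) had 20191, 17908 and 12900 counts. The log2 ratio of SLC38A2 was -0.27 (-0.30 to -0.24) with the first shRNA and -0.73 (-0.76 to -0.70) with the other, so the libraries shared the direction and not the size. SLC38A1 (ENSG00000111371, 46183063 to 46270017) had 9923, 6495 and 5827 counts. Its ratios of -0.71 (-0.76 to -0.67) and -0.85 (-0.90 to -0.80) were closer to each other. SLC38A2 was less reduced than SLC38A1, by 0.44 (Wald interval 0.38 to 0.49) and 0.12 log2 units (Wald interval 0.07 to 0.18).

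SLC6A9 (GlyT1; ENSG00000196517, minus strand of chromosome 1, 43991500 to 44031467), a sodium- and chloride-dependent glycine transporter, had 726, 640 and 496 counts. Its log2 ratios were -0.28 (-0.44 to -0.13) and -0.63 (-0.80 to -0.46). SLC6A9 was thus among the least reduced members in DDX24-sh1, where 23.6% of all genes had a lower ratio. It overlaps CCDC24 on the opposite strand, with 137, 172 and 132 counts, and a non-coding gene with 55, 70 and 63 counts, and the use of strand in counting is not given in the sources used here.

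The 2 shRNA libraries differed from each other beyond counting error for 7 of the 10 members, compared with 44.7% of all genes tested. That share depends on abundance, which was not matched, so the 2 values cannot be read as a difference between transporters and other genes. SLC7A5, SLC3A2, SLC1A5 and SLC7A1 were higher in DDX24-sh2 than in DDX24-sh1, by 0.08 to 0.18 log2 units. SLC38A2, SLC38A1 and SLC6A9 were lower in DDX24-sh2, with differences of -0.45, -0.14 and -0.35 log2 units. The SNAT genes and the glycine carrier were thus lowest in the library with the higher DDX24 count, and the other 4 in the library with the lower one. SLC7A11, SLC1A4 and SLC43A1 had intervals that included 0. These signs depend on which naming of the shRNA libraries is right, and an exchange of names would turn them all.

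Per gene length, the order of the members in Control-sh was SLC7A5 (2765 TPM), SLC3A2 (854), SLC38A2 (638), SLC1A5 (559), SLC38A1 (207), SLC7A11 (168), SLC7A1 (103), SLC1A4 (38.1), SLC6A9 (29.3) and SLC43A1 (3.01). Each neighbour in that order differed from the next beyond counting error. A single length per gene was used, which need not be that of the transcript expressed, so the order holds for these lengths only. In DDX24-sh1, SLC38A2 (509 TPM) stood above SLC3A2 (402 TPM), and in both shRNA libraries SLC6A9 (23.3 and 17.6 TPM) stood above SLC1A4 (9.06 and 8.54 TPM). SLC38A1 and SLC7A11 came close, at 122 and 117 TPM in DDX24-sh1 and 106 and 112 TPM in DDX24-sh2. The sum over the 10 members was 5363, 2583 and 2476 TPM, so the shRNA libraries held 48.2% and 46.2% of the control. SLC7A5 alone made up 51.6% of the control sum and 57.6% and 54.9% of the difference. In counts, without length, the members held 0.794% of the control library and 0.419% and 0.414% of the shRNA libraries.

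Other SLC genes were set beside the members as a description. Among 179 of them averaging 1 CPM or more, the median log2 ratio was 0.03 and -0.03, with 61 below and 66 above the control with both shRNAs, where 40.2% and 34.6% of all genes tested were. Of the 179, 3 were at least 2-fold lower in both and 4 at least 2-fold higher, where 1.38% and 1.19% of all genes tested were. The lowest by the library with the smaller change, among the 151 averaging 5 CPM or more, were SLC45A4 (-1.56 and -1.75), SLC7A2 (-1.48 and -1.15), SLC7A7 (-0.98 and -1.38), SLC39A14 (-0.93 and -1.21) and SLC27A2 (-1.07 and -0.85). SLC7A2 (CAT2) carries cationic amino acids, SLC7A7 (y+LAT1) is a light chain of SLC3A2, SLC39A14 is a zinc and manganese importer, and SLC27A2 takes up and activates fatty acids. The highest were SLC4A8 (1.68 and 1.65), SLC9A2 (0.70 and 0.71), the iron exporter SLC40A1 (0.97 and 0.68), the glutamate transporter SLC1A1 (0.64 and 0.75) and the mitochondrial ADP/ATP carrier SLC25A4 (0.51 and 0.55).

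**Figure D3:**
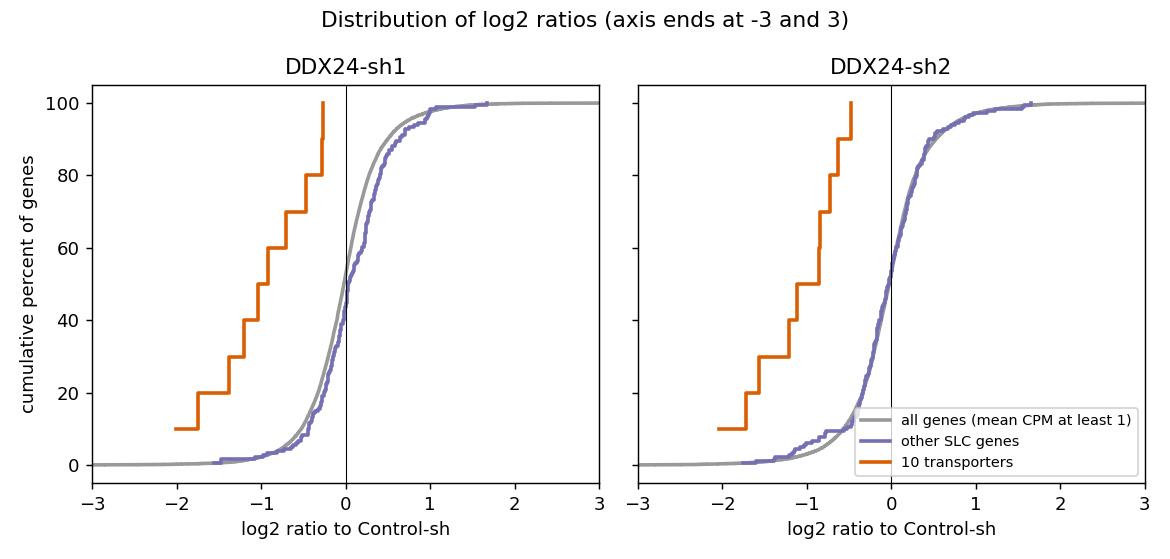
Cumulative percent of genes against the log2 ratio to Control-sh for DDX24-sh1 (left) and DDX24-sh2 (right), for all 13984 genes tested, 179 other SLC genes and the 10 transporters. The curve of the 10 transporters lies wholly left of 0, while that of the other SLC genes runs near the curve of all genes, with medians of 0.03 and -0.03.

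Amino acid transporters outside the 10 were examined in 2 lists. Of 30 others of the plasma membrane, 9 averaged 1 CPM or more, of which 4 were lower and 4 higher in both libraries. Beside this and the counts of the lists that follow, 40.2% of all genes tested were lower in both and 34.6% higher. The taurine transporter SLC6A6 was higher, with 4728, 6251 and 5692 counts, or 0.30 and 0.19 as log2 ratios. SLC7A2, with 370, 141 and 175 counts, was the one gene at least 2-fold lower in both. SLC7A7 had 496, 268 and 200 counts, and SLC1A1 had 62, 105 and 112. Of 19 carriers of lysosomes and mitochondria, 17 averaged 1 CPM or more, and none was 2-fold lower or higher in both libraries, which 1.38% and 1.19% of all genes were, so that few were to be found in a list of this size. Their medians were 0.22 and 0.15, 10 were higher and 5 lower in both, and SLC38A10 had ratios of 0.15 and -0.29. SLC38A9, the lysosomal arginine sensor, had 432, 342 and 366 counts and ratios of -0.43 and -0.32.

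Genes that sense amino acids upstream of the kinase complex mTORC1 were near the background as a list. Of 32 names, 30 were in the tables and 29 averaged 1 CPM or more, with medians of 0.04 and -0.02, and 11 were lower and 11 higher in both libraries, where 40.2% and 34.6% of all genes were. SESN2, the leucine sensor and an ATF4 target, was at least 2-fold lower in both libraries, with 713, 318 and 353 counts. Its relative SESN3 was the one gene at least 2-fold higher in both, with 179, 399 and 386 counts. Over all genes tested, 1.38% were at least 2-fold lower in both libraries and 1.19% at least 2-fold higher. SEC13, a subunit of the GATOR2 complex, had ratios of -0.11 and -0.36.

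On the EIF2 kinase and ATF4 list, which was chosen with earlier results of these data known, most genes were lower. All 16 genes averaged 1 CPM or more, and 9, against 1.38% of all genes tested, were at least 2-fold lower in both libraries (DDIT3, ATF3, CHAC1, NUPR1, TRIB3, PPP1R15A, CEBPB, CEBPG and ASNS), with medians of -1.17 and -1.13. ASNS passed the filter only through the control library (2.17, 0.164 and 0.776 CPM), and the count was 8 when its reads were summed with those of AC079781.5, a gene that spans it on the same strand. ATF4 itself had 7178, 4137 and 3818 counts, with ratios of -0.89 and -0.99. These are mRNA values, and a link of ATF4 to the transporters was not tested. Of the kinases, EIF2AK4 (GCN2), which senses uncharged tRNA, was higher at 0.34 and 0.26. EIF2AK3 (PERK), which senses stress in the endoplasmic reticulum, was lower at -0.81 and -0.90. EIF2AK1 had ratios of -0.18 and -0.16, and EIF2AK2 had 0.05 and 0.02. DDIT3 (CHOP) and ATF3, transcription factors of the stress response, had 898, 76 and 64 and 457, 63 and 38 counts. ATF5, another transcription factor of that response, was higher, with 472, 681 and 823 counts and ratios of 0.43 and 0.72. Of 10 other regulators, 9 lay below the control with both shRNAs, where 40.2% of all genes tested lay below it. None was 2-fold lower in both, which 1.38% of all genes were, so that few were to be found in a list of this size. MYC had 3415, 2288 and 2356 counts (ratios -0.68 and -0.62), NFE2L2 had 2910, 1713 and 1781 (ratios -0.86 and -0.79), and HIF1A differed in sign between the libraries, at 0.14 and -0.27.

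Genes that use the imported amino acids did not share 1 direction. On the list from cystine to glutathione, the medians were -0.02 and -0.02 over 13 genes, and 6 were lower and 5 higher in both libraries. CHAC1, which degrades glutathione and stands on the ATF4 list too, had 916, 130 and 48 counts. It was the one gene at least 2-fold lower in both, against 1.38% of all genes tested. TXNRD1, a thioredoxin reductase, had ratios of -0.31 and -0.38, and GCLM, a subunit of the enzyme that limits glutathione synthesis, had -0.27 and -0.23. Thioredoxin (TXN) was higher at 0.27 and 0.26, and the peroxidase gene GPX1 at 0.69 and 0.52. On the list of glutamine, serine and leucine users, 14 of 15 genes averaged 1 CPM or more, with medians of -0.36 and -0.07, and 9 were lower and 4 higher with both shRNAs, beside the same 40.2% and 34.6% of all genes. PHGDH, the first enzyme of serine synthesis, was at least 2-fold lower in both, with 2251, 816 and 797 counts. ASNS, which uses glutamine to make asparagine, had 37, 3 and 14 counts, or -3.04 (-6.07 to -2.07) and -1.36 (-2.48 to -0.56). AC079781.5 had 4, 14 and 18 counts, and the summed counts of the pair, 41, 17 and 32, gave -1.28 (-2.28 to -0.52) and -0.42 (-1.15 to 0.26), so the value of ASNS is uncertain.

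Among genes other than the members, those whose pair of ratios lay closest to the members' median pair, by Euclidean distance over 9652 genes averaging 10 CPM or more, were MANF (-0.98 and -0.99), DUSP1 (-1.02 and -1.01), DUSP16 (-1.04 and -0.998), MEF2A (-0.91 and -0.99) and JAG1 (-0.99 and -1.05). MANF is a secreted protein of the endoplasmic reticulum, DUSP1 and DUSP16 are phosphatases of MAP kinases, MEF2A is a transcription factor and JAG1 a Notch ligand. The distance rests on 3 libraries and 1 shared control.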

How the data were processed

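RNA from A549 cells was sequenced in 3 libraries, 1 per condition. The authors deposited raw counts per gene and FPKM values per gene, and the submitters' processing notes name Bowtie2 2.0.6, TopHat2 2.0.9, Cufflinks 2.1.1 and Cuffdiff 2.1.1 without their roles. The counter, genome build and strandedness are not given in the sources used here. All 58735 genes carry GENCODE 29 (GRCh38) coordinates. The FPKM per count and length agreed within 1% for 100% of genes with at least 50 counts when the names of the 2 shRNA libraries were exchanged, and for 5.23% and 5.17% as named. Both readings of the FPKM were tried as alternatives.

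Log2 ratios of CPM (TMM, prior count of 2) were taken in edgeR 4.0.16 under R 4.3.3. No p-value was computed, since each condition has 1 library. Intervals are exact 95% Clopper-Pearson intervals of 2 counts, and 95% Wald intervals for 6 pairs of transporters. As PCR copies of a molecule are not told apart, intervals and the limit of 3 counts cover counting error only. TPM was computed from counts and the gene length in the files. Genes averaging 1 CPM or more formed the background. DESeq2 1.42.0 size factors, total counts, a prior count of 0.5, the FPKM as log2(FPKM + 0.1), other filters and thresholds were alternatives. The ratio and interval steps were tested on simulated data. A planned comparison of protein sequences was not run. Copies were searched with BLAST 2.17.0 (at least 95% identity over 100 nt).

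The named genes were all members, DDX24, the gene of highest mean CPM (not divided by length) and the 2-fold changed genes of each list, the 5 lowest and 5 highest other SLC genes, and the 5 closest genes, apart from items that are not reported here. Genes beyond these were chosen after their values were seen, and the members and lists were chosen with earlier results of these data known.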

Additional observations from a re-analysis of the deposited data

How the results depend on the processing

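Each of the 20 member ratios stayed below 0 under each alternative run. DESeq2 size factors, a prior count of 0.5 and the FPKM with exchanged names moved none of them beyond its counting interval, total counts moved 1 (SLC7A5 in DDX24-sh2, -1.09), and adding the SLC7A5 pseudogenes moved neither SLC7A5 ratio beyond its interval. The FPKM with the names as given moved 15, and put DDX24 itself at -1.45 and -1.72. With those names the ratio of DDX24-sh2 to DDX24-sh1 changed sign for DDX24 (-0.27) and all members: SLC7A5 -0.0735, SLC3A2 -0.17, SLC7A1 -0.18, SLC1A5 -0.16, SLC7A11 0.0115, SLC1A4 0.0318, SLC38A1 0.14, SLC38A2 0.46, SLC6A9 0.35 and SLC43A1 0.67. Total counts alone turned that of SLC7A11 to 0.0124. The number of members lower in both libraries was 4 at 2-fold, 7 at 1.5-fold (4.72% of all genes tested) and 2 at a log2 threshold of 1.5 (0.4%). Among the 13984 genes tested, 193 (1.38%) were at least 2-fold lower in both. With no filter beyond 1 count in any library, 912 of 27251 genes (3.35%) were. Among genes averaging 10 CPM or more, 105 of 9661 (1.09%) were. The number of genes tested differs by construction, and the share differed as well. The summed level was 48.2% and 46.2% of control in TPM. With the FPKM it was 50.1% and 50.4% as named, and 50.4% and 50.1% with exchanged names. For genes with at least 50 counts, FPKM per count and length was constant within 1% in each library once names were exchanged. For these genes FPKM and TPM thus differ by a factor per library, whose origin was not tested. Medians of all genes differed by under 0.1 log2 units between scalings. Low counts limit SLC43A1 and ASNS, whose sum with AC079781.5 was chosen after seeing the data. No paired analysis was possible because each condition has 1 library.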
